A study of Danio rerio with 23 samples.

Results

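Enteroendocrine cells (EECs) of the zebrafish larval gut were compared with younger endodermal cells to describe what EECs express. The comparison used 6 of the 23 RNA-seq libraries of the series, chosen by their labels: 3 of wild-type EECs and 3 of control endoderm, all of the AB strain. The EECs were GFP+ cells sorted at 4 dpf from dissected guts of Tg(pax6b:GFP)ulg515 larvae that were wild type for neurod1 and were not heat-shocked. The control endoderm was sorted at 52 hpf as dsred+ cells from dissected trunks of Tg(sox17:dsred) embryos, wild type in genotype, that carried no further transgene and had been heat-shocked at 38 and 48 hpf. Each EEC library pooled about 200 larvae and held 1000 to 2000 sorted cells, and each endoderm library pooled about 150 embryos and held 2000 to 4000 cells. Dissections in both groups were meant to leave out the pancreas. The other 17 libraries are EECs of larvae homozygous for neurod1 delUCE (n = 4) and heat-shocked endoderm with a heat-inducible transgene (n = 13). The transgenes were ascl1a (n = 3), full-length neurod1 (n = 4), neurod1 delUCE (n = 3) and neurod1 delECD (n = 3). The delUCE and delECD forms each lack a conserved stretch of the Neurod1 protein. Cell type, age, dissected tissue, dissociation enzyme, reporter and heat shock differ together between the groups, so their effects cannot be told apart.

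EECs are scattered hormone-secreting cells of the intestinal epithelium that sense the gut content and release peptides and serotonin from secretory granules. They arise from secretory progenitors under the control of Notch signalling, leave the cell cycle and are specified by transcription factors of which many also act in the endocrine pancreas. The sox17 reporter labels derivatives of the endoderm, which include the gut epithelium, the liver and the pancreas.

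Total counts were 8626863 to 13518657 in EECs and 11514570 to 16144085 in control endoderm. Levels are CPM, the counts of a gene per 1000000 counts of its library, after TMM normalization and are listed for replicates 1, 2 and 3 in that order. Across the genes tested, log2 CPM correlated between libraries at r = 0.779 to 0.869 within EECs, 0.894 to 0.905 within control endoderm and 0.426 to 0.609 between the groups, as a description over genes that are not independent replicates. Several libraries stood apart. EEC replicate 3 had 139 genes at 0 that reached at least 20 CPM in another EEC library, against 28 in replicate 1 and 0 in replicate 2. Liver and enterocyte transcripts were highest in EEC replicate 2, exocrine pancreas transcripts were higher in EEC replicates 1 and 2, muscle transcripts were highest in control replicate 3, and blood transcripts and several heat shock genes were highest in control replicate 2. Their values are given beside the results they touch.

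The reporters were checked first. The level of pax6b, whose regulatory sequence drives the GFP of the sort, was 622, 372 and 445 CPM in EECs and 1.34, 1.58 and 5.25 CPM in control endoderm. This difference follows from the sort and is given only as a check of the labels. SOX17, the gene named by the other reporter, was at 0, 0 and 0 CPM in EECs and 1.34, 1.86 and 0.576 CPM in control endoderm and was too low to be tested. The gene for insulin (ins), made by pancreatic beta cells, was at 0.787, 0 and 0 CPM in EECs and 5.45, 0 and 41.9 CPM in control endoderm. Insulin was thus at or near 0 in every EEC library and was clearly present only in control replicates 1 and 3.

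Of 17346 genes tested, 3250 (18.7%) were higher and 3035 (17.5%) lower in EECs at a false discovery rate (FDR) of at most 0.1 by edgeR's quasi-likelihood test, 36.2% in either direction. The 3 EEC libraries did not overlap the 3 control libraries for 3193 of the genes that were higher and 3000 of those that were lower. Over all genes tested, called or not, the groups did not overlap for 9012 (52.0%). Fold changes are log2 of EECs over control endoderm with the standard error, and their median over all genes tested was -0.05. A rise or fall means a higher or lower level in EECs than in control endoderm, not a change over time. With RLE size factors the median moved to -0.18, a shift of 0.13, and the share of calls that were higher in EECs went from 51.7% to 46.6%. In bulk libraries a lower level can come from fewer cells of a type or from less RNA per cell, and these cannot be told apart. The labels do not say whether the pools of a group came from separate crosses, so each FDR measures only the spread between these pools. The gene lists below were written with earlier results of these data known, so their shares are descriptions and not tests.

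The other markers of EECs were near 0 in the endoderm. neurod1, a bHLH transcription factor of endocrine and neuronal cells, was at 802, 849.7 and 776 CPM in EECs and 2.77, 0 and 4.61 CPM in control endoderm (log2 fold change 8.34 ± 1.27, FDR = 0.0046). In the endoderm files the authors counted the stretch of neurod1 that the transgenes carry as a feature of its own and set aside reads shared by both, so the endoderm level may be understated. Adding that feature's 15, 3 and 2 counts gave a log2 fold change of 8.06 (FDR = 0.0022). The shared reads that were set aside stay missing from this sum, so the endoderm level may still be understated. penka, a proenkephalin gene for opioid peptides, was at 18992, 14688 and 9218 CPM in EECs and 0.0791, 1.77 and 0 CPM in control endoderm (log2 fold change 14.58 ± 1.70, FDR = 0.002). adcyap1a, the gene for the neuropeptide PACAP, was at 8343, 4737 and 3734 CPM in EECs and 0.791, 0.744 and 1.09 CPM in control endoderm (log2 fold change 12.62 ± 0.66, FDR = 0.00045). For neurod1, penka and adcyap1a every EEC library lay far above every control library. The same held for pax6b, where it follows from the sort.

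Hormone genes made up 7 of the 12 largest rises. Of 28 hormone and neuropeptide features on the list, 27 had a count, 23 passed the filter on low counts, 18 (78.3%) were higher and 1 (4.35%) was lower, against 18.7% and 17.5% of all genes tested. Their median log2 fold change was 8.27. The 18 include penka and adcyap1a, which were also read above as markers. The whole list, called or not, took 6.89%, 6.81% and 3.40% of all counts in EECs, against 0.00240%, 0.00212% and 0.0397% in control endoderm. The share of control replicate 3 includes sst1.2 at 180.4 CPM, which was not among the 18. SST, VIP, NPY and trh were not tested.

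Among peptides that act on appetite and digestion, PYY (ENSDARG00000035832), which encodes peptide YY, was at 31577, 35073 and 11460.0 CPM in EECs and 1.03, 0.279 and 1.09 CPM in control endoderm (log2 fold change 14.95 ± 1.06, FDR = 0.00065). CCK, the gene for cholecystokinin, was at 3527, 7701 and 1977 CPM in EECs and 0, 0.093 and 0 CPM in control endoderm, with 1 count in all over the 3 control libraries. It was higher by 142052-fold in the ratio of means (95% counting interval 25496 to 5.61e+06), FDR = 0.00065. PYY and CCK were both lowest in EEC replicate 3, and no EEC library came near the endoderm. The second peptide YY gene, pyya, was at 177, 120.2 and 185 CPM in EECs and 0.632, 0.372 and 2.75 CPM in control endoderm (log2 fold change 6.96 ± 0.81, FDR = 0.002).

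Ghrelin (ghrl), a hormone of hunger, was at 178, 47.5 and 53.5 CPM in EECs and 1.82, 2.51 and 0.896 CPM in control endoderm (log2 fold change 5.75 ± 0.75, FDR = 0.0027). The motilin-like gene mlnl, named for a peptide of gut motility, was at 433, 337 and 323 CPM in EECs and 4.51, 2.7 and 1.15 CPM in control endoderm (log2 fold change 7.03 ± 0.60, FDR = 0.00089). The glucagon gene gcga, which also encodes glucagon-like peptides, was at 1425, 269 and 728 CPM in EECs and 0.949, 1.86 and 29.2 CPM in control endoderm (log2 fold change 6.23 ± 1.47, FDR = 0.02). Control replicate 3 held most of the gcga counts of the endoderm, but still lay below every EEC library. The incretin gene gip was at 246, 1273 and 20.9 CPM in EECs and 0, 0.465 and 0.064 CPM in control endoderm (log2 fold change 11.55 ± 1.96, FDR = 0.007). Its level differed 61.0-fold between the highest and the lowest EEC library, the widest spread of any hormone gene called higher, with the highest level in replicate 2.

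Relaxin-family and neuropeptide genes also rose. insl5a, a relaxin-family peptide gene expressed in the hindgut of mammals under the name INSL5, was at 4456, 1913 and 1048 CPM in EECs and 0.158, 0.186 and 0.32 CPM in control endoderm (log2 fold change 13.35 ± 0.91, FDR = 0.00065). insl5b was at 196, 73.8 and 35 CPM in EECs and 0, 0.093 and 0.128 CPM in control endoderm and was higher by 1379-fold in the ratio of means (95% counting interval 472 to 6688), FDR = 0.0016. The calcitonin and CGRP gene calca was at 1339, 1606 and 1104 CPM in EECs and 0.158, 0.837 and 0.96 CPM in control endoderm (log2 fold change 10.98 ± 0.74, FDR = 0.00065). All 3 genes were absent or nearly absent from the control endoderm, and both insl5 genes were highest in EEC replicate 1.

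GAL (galanin) was at 1007, 414 and 147 CPM in EECs and at 0 in all control libraries, at least 2216-fold higher when 3 counts are set as the limit in each control library (FDR = 0.0025). nmbb, a neuromedin B gene, was at 727, 364 and 257 CPM and was also at 0 in the endoderm, at least 1903-fold higher (FDR = 0.0011). vipb, a gene for vasoactive intestinal peptide, was at 473, 195 and 53.8 CPM in EECs and 0.791, 0.186 and 0.064 CPM in control endoderm (log2 fold change 9.42 ± 1.23, FDR = 0.0028). These neuropeptide genes shared an order, highest in EEC replicate 1 and lowest in replicate 3. NMU (neuromedin U) was at 75.8, 50.9 and 21.4 CPM in EECs and 0.0791, 0.093 and 0.256 CPM in control endoderm (log2 fold change 8.27 ± 0.80, FDR = 0.0013). The tachykinin gene tac1 was at 53.5, 17.6 and 57 CPM in EECs and 0.237, 0.744 and 3.91 CPM in control endoderm (log2 fold change 4.68 ± 1.06, FDR = 0.017). The second neuromedin B gene, nmba, was at 2.13, 4.93 and 4.59 CPM in EECs and 0.0791, 0 and 0.384 CPM in control endoderm (log2 fold change 4.50 ± 1.301, FDR = 0.039). The call of nmba was lost without control replicate 1 or 2. For these 3 genes too, every EEC library was above every control library.

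Somatostatin did not follow the other hormones. sst1.2 was at 1.1, 0.284 and 2.71 CPM in EECs and 3.16, 2.88 and 180.4 CPM in control endoderm, with a log2 fold change of -5.51 ± 1.83 and FDR = 0.061. Without control replicate 3 the log2 fold change was -1.16 and the call was lost (FDR = 0.59). sst2 was at 21.9, 4.27 and 58 CPM in EECs and 1.11, 4.37 and 109 CPM in control endoderm and was not called. GCG, penkb and adcyap1b were not called either. sst1.2, sst2, ins and gcga were all highest among the controls in replicate 3, and the part of other endocrine cells in these values was not tested. Among hormone genes called higher, the highest EEC library exceeded the lowest by 1.34-fold for mlnl and 1.46-fold for calca, by 8.80-fold for vipb and by 61.0-fold for gip. It was 33.8-fold for GCG, 13.6-fold for sst2 and 9.53-fold for sst1.2, which were not higher.

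**Figure D1:**
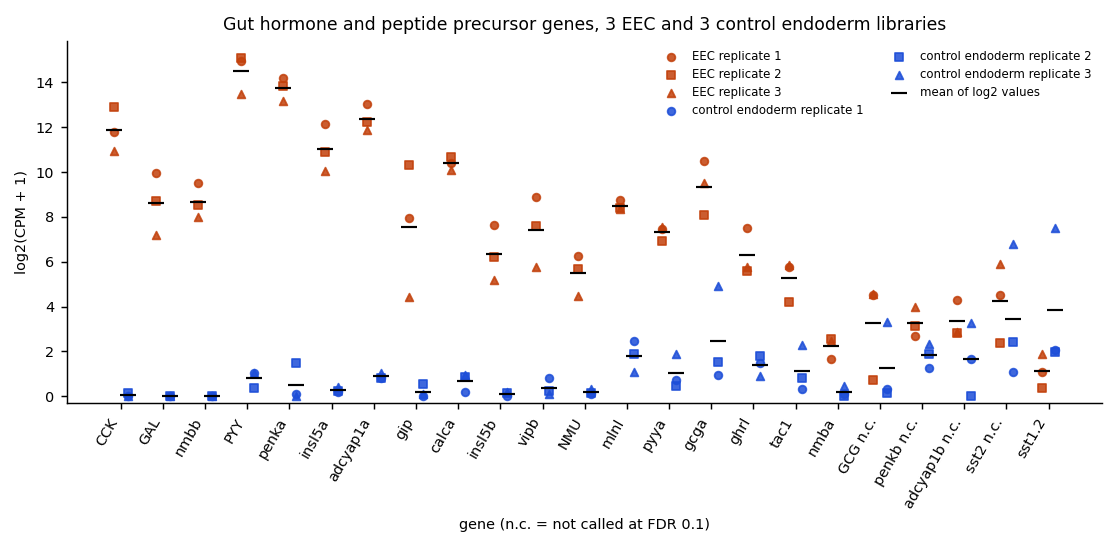
Hormone and peptide precursor genes on the x axis, ordered by log2 fold change, against log2(CPM + 1) on the y axis, with 1 symbol per library of wild-type EECs (n = 3, orange) and control endoderm (n = 3, blue) and a line at each group's mean of log2 values. EEC symbols lie above all control symbols for the 18 genes called higher, sst2 overlaps, and for sst1.2 control replicate 3 stands far above all other libraries.

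Many transcription factors of the endocrine lineage rose. Of 32 features, 31 had a count and 30 were tested. Of these, 17 (56.7%) were higher and 1 (3.33%) was lower, against 18.7% and 17.5% of all genes tested. Their median log2 fold change was 3.36. The 17 include neurod1, read above as a marker, and pax6b, whose difference follows from the sort. Some of the 17 were at or near 0 in every control library, whereas others were detected there. pax4, a paired-box factor of endocrine specification, was at 219.9, 413 and 285 CPM in EECs and at 0 in all control libraries, at least 1296-fold higher (FDR = 0.00071). fev, an ETS factor of serotonin neurons and endocrine progenitors in mice, was at 982, 1076 and 791 CPM in EECs and 0.474, 0.279 and 0.768 CPM in control endoderm (log2 fold change 10.81 ± 0.54, FDR = 0.00045). etv1, another ETS factor, was at 470.4, 337 and 677 CPM in EECs and 0.632, 0 and 0.96 CPM in control endoderm (log2 fold change 9.78 ± 1.00, FDR = 0.0016). For each of the 3 genes the lowest EEC library was far above the highest control library.

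rfx6, a winged-helix factor of islet and gut endocrine cells, was at 96.4, 102 and 248 CPM in EECs and 0.158, 0 and 0.832 CPM in control endoderm (log2 fold change 8.67 ± 1.07, FDR = 0.0023). nkx2.2a, a homeobox factor of the same lineages, was at 264, 313 and 142 CPM in EECs and 0.553, 0.279 and 3.78 CPM in control endoderm (log2 fold change 7.24 ± 1.04, FDR = 0.0037). Neither overlapped between the groups, and rfx6 was highest in EEC replicate 3 whereas nkx2.2a was lowest there. The LIM-homeobox gene LMX1B (ENSDARG00000104815) was at 153, 84.5 and 128 CPM in EECs and 0.553, 0 and 0.768 CPM in control endoderm (log2 fold change 8.01 ± 0.90, FDR = 0.0018), and its second copy was not called.

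The early response factor egr4 was at 3690.3, 2163 and 4962 CPM in EECs and 16.4, 3.25 and 64.7 CPM in control endoderm (log2 fold change 6.999 ± 1.17, FDR = 0.0065). insm1b, a zinc-finger factor of endocrine differentiation, was at 805, 381 and 839 CPM in EECs and 13.7, 20.4 and 22.8 CPM in control endoderm (log2 fold change 5.15 ± 0.46, FDR = 0.001). Its paralog insm1a was at 158, 144 and 134 CPM in EECs and 16.2, 10.2 and 30.0 CPM in control endoderm (log2 fold change 2.95 ± 0.44, FDR = 0.0044). These genes were detected in the endoderm too and were higher in EECs, with no overlap between the groups. isl1, a LIM-homeobox factor of islet cells and neurons, was at 177, 224 and 246 CPM in EECs and 0.87, 2.88 and 18.6 CPM in control endoderm (log2 fold change 4.84 ± 1.06, FDR = 0.016), with control replicate 3 above the other controls. pdx1, a factor of the pancreas and the foregut, was at 650.3, 369 and 525 CPM in EECs and 39.8, 54.1 and 44.8 CPM in control endoderm (log2 fold change 3.48 ± 0.34, FDR = 0.0014). runx1t1, rfx3 and HOPX were also higher, by 3.90, 2.302 and 4.13 on the log2 scale.

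ascl1a, which specifies secretory progenitors of the zebrafish gut, moved the other way, at 33.5, 37.6 and 12.4 CPM in EECs and 104, 131 and 124 CPM in control endoderm (log2 fold change -2.10 ± 0.45, FDR = 0.014). Every EEC library was below every control library. According to the study's methods the identifier used here holds only the 3′ UTR of ascl1a, so its level is not that of the whole transcript. Not called were both copies of SOX11 and of MYT1, sox4a, sox4b, MNX1, NKX6-1, nkx6.2 and PAX6.

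**Figure D2:**
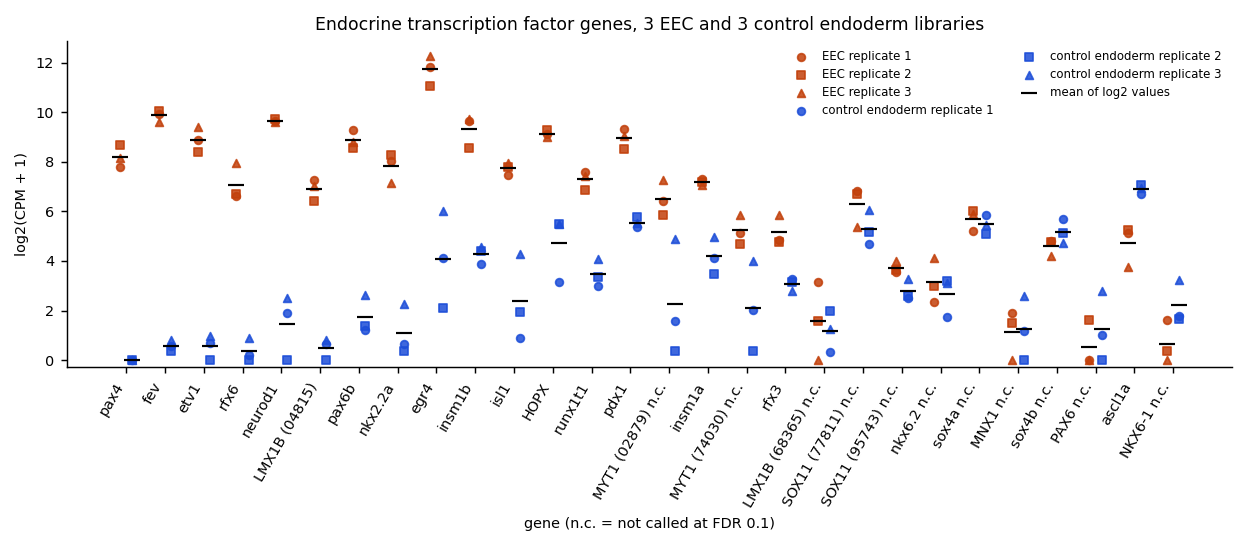
Endocrine transcription factor genes (28 of the 30 tested) on the x axis, ordered by log2 fold change, against log2(CPM + 1) on the y axis, with 1 symbol per library of wild-type EECs (n = 3, orange) and control endoderm (n = 3, blue) and a line at each group's mean of log2 values. pax4 was at 0 in all controls, pdx1 and insm1a were detected in both groups, and ascl1a is the one called gene whose EEC symbols lie below the control symbols.

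Genes for making and packing prohormones rose together. Of 23 tested granule genes 19 (82.6%) were higher and 2 (8.70%) were lower, against 18.7% and 17.5% of all genes tested. Their median log2 fold change was 6.01, or 5.65 with genes at 0 in a whole group set at their limit. The prohormone convertase gene pcsk1 was at 516, 363 and 1472 CPM in EECs and 0.474, 0.093 and 4.48 CPM in control endoderm (log2 fold change 8.81 ± 1.43, FDR = 0.0059). PCSK2, a second convertase, was at 1219.8, 353 and 1684 CPM in EECs and 0.712, 0 and 12.3 CPM in control endoderm (log2 fold change 7.95 ± 1.79, FDR = 0.017). Both were highest in EEC replicate 3 and, among controls, in replicate 3. CPE, the carboxypeptidase that trims the cut peptides, was at 439, 360.2 and 786 CPM in EECs and 11.5, 0.744 and 29.2 CPM in control endoderm (log2 fold change 5.25 ± 1.14, FDR = 0.015). PAM, the enzyme that amidates peptide ends, was also expressed in the endoderm, at 726, 520.1 and 544 CPM in EECs and 83.0, 57.6 and 59.16 CPM in control endoderm (log2 fold change 3.16 ± 0.32, FDR = 0.0015).

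Other genes of the granule list rose as well. scg3, which encodes secretogranin III, was at 3562, 2631 and 2680.0 CPM in EECs and 3.87, 1.77 and 16.4 CPM in control endoderm (log2 fold change 8.64 ± 1.01, FDR = 0.002). chga (chromogranin A) was at 103, 69.9 and 95.8 CPM in EECs and 0, 0.93 and 3.14 CPM in control endoderm (log2 fold change 6.01 ± 1.16, FDR = 0.011). scgn, which encodes the calcium sensor secretagogin, was at 586, 593 and 327 CPM in EECs and 0.158, 0.093 and 3.91 CPM in control endoderm (log2 fold change 8.44 ± 1.38, FDR = 0.006). EECs lay above the endoderm in every library for all 3. The other genes that were higher were pcsk1nl, the granule membrane phosphatases PTPRN, ptprna and PTPRN2, scg2b, both SCG5 copies, vgf, cadpsa, cadpsb, sytl4 and rab3da, with log2 fold changes from 2.07 for sytl4 to 7.99 for SCG5 (ENSDARG00000032126), leaving out the second SCG5 copy, which had no count in the endoderm. Against these, chgb (chromogranin B) was at 0.866, 1.42 and 1.04 CPM in EECs and 4.35, 6.14 and 5.95 CPM in control endoderm (log2 fold change -2.29 ± 0.76, FDR = 0.062), and its call was lost in 10 of the alternative analyses. SLC30A8, a granule zinc transporter of islet cells, was at 0 in all EEC libraries and at 4.19, 2.14 and 5.19 CPM in the endoderm, at least 13.8-fold lower (FDR = 0.013).

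Genes of serotonin synthesis rose as well. Of 11 genes tested, 7 (63.6%) were higher and 0 were lower, against 18.7% and 17.5% of all genes tested. Their median log2 fold change was 2.66. TPH1 (ENSDARG00000036082), the rate-limiting tryptophan hydroxylase of non-neuronal cells, was at 424, 406 and 244 CPM in EECs and 2.85, 5.3 and 4.8 CPM in control endoderm (log2 fold change 6.37 ± 0.45, FDR = 0.00065). DDC, the decarboxylase of the next step, was at 327, 167 and 198 CPM in EECs and 0, 0.186 and 0.192 CPM in control endoderm (log2 fold change 10.71 ± 0.78, FDR = 0.00065). SLC18A2, which loads monoamines into vesicles, was at 18.7, 19.6 and 70.9 CPM in EECs and 0.237, 0.093 and 0.128 CPM in control endoderm (log2 fold change 7.79 ± 0.90, FDR = 0.0019). None of these 3 overlapped, and SLC18A2 was highest in EEC replicate 3. GCH1 and QDPR, which make and recycle the cofactor of the hydroxylase, rose by 3.81 and 2.02 on the log2 scale, mao, which breaks serotonin down, by 6.75, and the neuronal hydroxylase gene TPH2 by 2.66. The call of TPH2 was lost without EEC replicate 3 or any control library. SLC6A4, the serotonin uptake transporter, was not called.

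Genes of regulated exocytosis were higher for 14 (58.3%) of 24 tested and lower for 0, against 18.7% and 17.5% of all genes tested. Their median log2 fold change was 3.54. SYT1, a calcium sensor of vesicle fusion, was at 456, 268 and 622 CPM in EECs and 7.59, 4.18 and 14.7 CPM in control endoderm (log2 fold change 5.66 ± 0.62, FDR = 0.0017). CPLX2, a complexin that clamps the fusion complex, was at 454, 299 and 306 CPM in EECs and 8.78, 1.86 and 18.2 CPM in control endoderm (log2 fold change 5.19 ± 0.81, FDR = 0.005). The vesicle SNARE gene vamp2 was at 184, 168 and 209 CPM in EECs and 2.45, 0 and 14.1 CPM in control endoderm (log2 fold change 5.06 ± 1.38, FDR = 0.032). Control replicate 3 was the highest control for each of them. The count of genes that were higher was 17 without control replicate 3 and 8 without control replicate 1. Without control replicate 1 the call of vamp2 was lost as well.

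Ion channels of excitable cells followed the same direction, with 19 (76%) of 25 higher and 0 lower, against 18.7% and 17.5% of all genes tested. Their median log2 fold change was 5.45 (5.19 with a gene at 0 in the endoderm set at its limit). TRPA1 (ENSDARG00000031875), a cation channel that responds to irritants, was at 682, 317 and 810.5 CPM in EECs and 1.11, 1.12 and 1.09 CPM in control endoderm (log2 fold change 9.08 ± 0.54, FDR = 0.00045). ABCC8, the sulfonylurea receptor subunit of the ATP-sensitive potassium channel, was at 263, 159 and 251 CPM in EECs and 0.0791, 0 and 1.73 CPM in control endoderm (log2 fold change 8.42 ± 1.27, FDR = 0.0045). The calcium channel gene cacna1ha was at 182, 132 and 318 CPM in EECs and 0.474, 2.05 and 0.832 CPM in control endoderm (log2 fold change 7.57 ± 0.71, FDR = 0.0011). The groups were apart for each of these channels. CACNA1B, of another calcium channel, was at 133, 84.7 and 149 CPM in EECs and 0.949, 1.86 and 1.47 CPM in control endoderm (log2 fold change 6.41 ± 0.46, FDR = 0.00065), with the 3 control libraries close to each other.

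Receptors for nutrients and signals were split. Of 17 tested, 5 were higher and 2 lower, against a background of 18.7% and 17.5%, with a median log2 fold change of 0.55. CASR, the calcium-sensing receptor, was at 76.3, 65.9 and 53.6 CPM in EECs and 0.474, 0 and 0.832 CPM in control endoderm (log2 fold change 7.13 ± 0.92, FDR = 0.0027). adra2a, an adrenergic receptor, was at 28, 63.5 and 59.6 CPM in EECs and 0.316, 0.093 and 0.704 CPM in control endoderm (log2 fold change 6.99 ± 0.78, FDR = 0.0018). The galanin receptor genes galr1a and galr2b had 1 count each over the 3 control libraries. galr1a was at 17.3, 15.6 and 7.09 CPM in EECs, higher by 430-fold in the ratio of means (95% counting interval 77.2 to 16979). galr2b was at 41.2, 19.9 and 33.9 CPM in EECs, higher by 1483-fold in the ratio of means (95% counting interval 266 to 58590). Galanin and these receptors were thus detected in the same sorted pools. INSR, the insulin receptor, was 0.78 higher on the log2 scale, whereas IGF1R and sstr5, a somatostatin receptor, were lower by a log2 fold change of -3.37 and -2.49. The call of INSR was lost with any single library left out, that of IGF1R without EEC replicate 1 or any control library, and that of sstr5 without EEC replicate 1 or control replicate 2.

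Among Notch pathway genes 2 Delta ligands were higher and several receptors were lower. dll4, a Delta ligand, was at 488, 185 and 199 CPM in EECs and 1.82, 2.14 and 10.7 CPM in control endoderm (log2 fold change 5.88 ± 0.89, FDR = 0.0046). dlb, another Delta ligand, was at 76.9, 61 and 135 CPM in EECs and 11.7, 10.4 and 53.5 CPM in control endoderm (log2 fold change 1.85 ± 0.70, FDR = 0.088). EEC libraries were above all controls for both ligands, for dlb by a small margin over control replicate 3. The receptor NOTCH1 was at 23.5, 30.6 and 34.2 CPM in EECs and 79.1, 58.5 and 90.6 CPM in control endoderm (log2 fold change -1.37 ± 0.32, FDR = 0.019). notch2 was at 40.0, 49.8 and 32.3 CPM in EECs and 106, 91.6 and 73 CPM in control endoderm (log2 fold change -1.15 ± 0.31, FDR = 0.03). NOTCH3 was at 19.5, 11 and 1.25 CPM in EECs and 59.3, 93.1 and 128 CPM in control endoderm (log2 fold change -3.13 ± 0.86, FDR = 0.033). All 3 receptors were lower in every EEC library than in any control, and NOTCH3 was lowest in EEC replicate 3. The ligand jag1b, the Hairy-related repressor her8a and mfng, an enzyme that adds sugars to Notch receptors, were lower as well, mfng at 0 in all EEC libraries and at least 24.1-fold lower. In all, 2 of 25 tested genes (8%) were higher and 6 (24%) lower, against 18.7% and 17.5% of all genes tested. Their median log2 fold change was -1.15, and the number that was lower ran from 2 to 11 over the alternative analyses. The call of dlb was lost without EEC replicate 1, EEC replicate 3, control replicate 1 or control replicate 2.

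Factors of the endoderm and gut went both ways. Of 29 tested endoderm and gut factors 9 (31.0%) were higher and 4 (13.8%) lower, against 18.7% and 17.5% of all genes tested. Their median log2 fold change was 0.24. foxa2, a forkhead pioneer factor, was at 193, 234 and 148 CPM in EECs and 28.5, 24.8 and 20.4 CPM in control endoderm (log2 fold change 2.96 ± 0.32, FDR = 0.0017). onecut1, a factor of liver and pancreas, was at 296, 186 and 507 CPM in EECs and 11.7, 6.41 and 33.2 CPM in control endoderm (log2 fold change 4.26 ± 0.72, FDR = 0.0069). Both were well above the endoderm in every EEC library. ELF3 was lower, and GATA5, HNF4G, gata4, prox1a and cdx4 were higher. Not called were GATA6, foxa3, HNF4A and cdx1b. The call of GATA5 was lost without EEC replicate 1, EEC replicate 2, control replicate 1 or control replicate 3.

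Epithelial keratin and junction genes were higher in 7 and lower in 9 of 41 tested (median log2 fold change -0.62). These shares of 17.1% and 22.0% lie near the 18.7% and 17.5% of all genes tested, and the number that was lower ran from 2 to 15 over the alternative analyses. cdh17, an intestinal cadherin, was at 779, 865 and 889 CPM in EECs and 257, 191 and 182 CPM in control endoderm (log2 fold change 2.01 ± 0.29, FDR = 0.0037). cldn3c, a claudin, was at 836, 651 and 496 CPM in EECs and 52.5, 150.4 and 45.5 CPM in control endoderm (log2 fold change 3.00 ± 0.54, FDR = 0.0085). krt4, a type II keratin of epithelia, was lower at 1355, 2102 and 1249 CPM in EECs and 2846, 5143 and 8619 CPM in control endoderm (log2 fold change -1.82 ± 0.50, FDR = 0.033). All libraries of both groups expressed these 3 genes, and control replicate 3 had the most krt4. Without EEC replicate 1 the call of krt4 was lost.

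Cell cycle genes were lower almost without exception. Of 37 tested, 34 (91.9%) were lower and 0 higher, against 17.5% and 18.7% of all genes tested. Their median log2 fold change was -4.10. The proliferation marker mki67 was at 72.2, 72.4 and 66.9 CPM in EECs and 405, 750.4 and 512 CPM in control endoderm (log2 fold change -2.98 ± 0.33, FDR = 0.0018). PCNA, the sliding clamp of DNA replication, was at 56.4, 88.7 and 25.2 CPM in EECs and 1034, 562 and 381 CPM in control endoderm (log2 fold change -3.54 ± 0.59, FDR = 0.0067). MCM2, a subunit of the replicative helicase, was at 5.98, 19.3 and 3.54 CPM in EECs and 474, 351 and 375 CPM in control endoderm (log2 fold change -5.38 ± 0.70, FDR = 0.0028). The lowest control library was above the highest EEC library for all 37 genes. Over all genes tested, the groups were apart in either direction for 52.0%. EECs still held some transcript of each of the 3 named. RRM1, which makes deoxynucleotides, and the helicase genes MCM3 and MCM4 fell by 3.93, 5.61 and 4.99 on the log2 scale. Over the alternative analyses 26 to 37 genes were lower.

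Heat shock protein genes were compared because the endoderm alone had been heat-shocked. Of 29 tested, 3 (10.3%) were higher and 15 (51.7%) lower in EECs, against 18.7% and 17.5% of all genes tested. Their median log2 fold change was -2.29. The small heat shock protein gene HSPB1 was at 0, 1.33 and 0 CPM in EECs and 1914, 2567 and 1224 CPM in control endoderm (log2 fold change -12.06 ± 1.48, FDR = 0.0023). HSPD1, a mitochondrial chaperonin, was at 50.3, 70.8 and 51.8 CPM in EECs and 969, 1112 and 886 CPM in control endoderm (log2 fold change -4.10 ± 0.32, FDR = 0.00075). Its partner HSPE1 was at 126, 179.5 and 58.6 CPM in EECs and 767, 1302 and 764 CPM in control endoderm (log2 fold change -2.96 ± 0.49, FDR = 0.0064). None of these 3 overlapped. hsp90b1, a chaperone of the endoplasmic reticulum, was at 125, 239 and 261 CPM in EECs and 1325, 947 and 789 CPM in control endoderm (log2 fold change -2.29 ± 0.40, FDR = 0.0074), again lower in every EEC library.

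The inducible hsp70l, whose promoter drives the transgenes of the other endoderm libraries, was at 19.8, 10.6 and 48.5 CPM in EECs and 3.08, 392 and 15.6 CPM in control endoderm and was not called. HSP90AA1 was at 136, 96 and 253 CPM in EECs and 92.3, 2095 and 158 CPM in control endoderm and was not called either. Both were much higher in control replicate 2 than in the other controls, and leaving that library out left 12 genes lower and 4 higher. HSPA8 (ENSDARG00000068992), a chaperone of unstressed cells, was at 4945, 5848 and 5623 CPM in EECs and 5907, 9849 and 6910.0 CPM in control endoderm (log2 fold change -0.47 ± 0.38, not called). Other entries of these families were called lower. The difference of mean log2(CPM + 1) was -5.66 for a second HSPA8 entry (ENSDARG00000037403) and -6.40 for hsp90aa1.1. HSF2, a heat shock transcription factor, was higher at 211, 213 and 191 CPM in EECs and 48.5, 47.8 and 34.1 CPM in control endoderm (log2 fold change 2.24 ± 0.28, FDR = 0.0024), as were the cochaperone genes dnajb1a and bag3. All controls were heat-shocked and no EECs were, so heat shock and cell type cannot be told apart for this list. The calls of dnajb1a and bag3 were each lost without EEC replicate 1 or control replicate 1, that of dnajb1a also without control replicate 3, and that of bag3 also without EEC replicate 3 or control replicate 2.

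**Figure D3:**
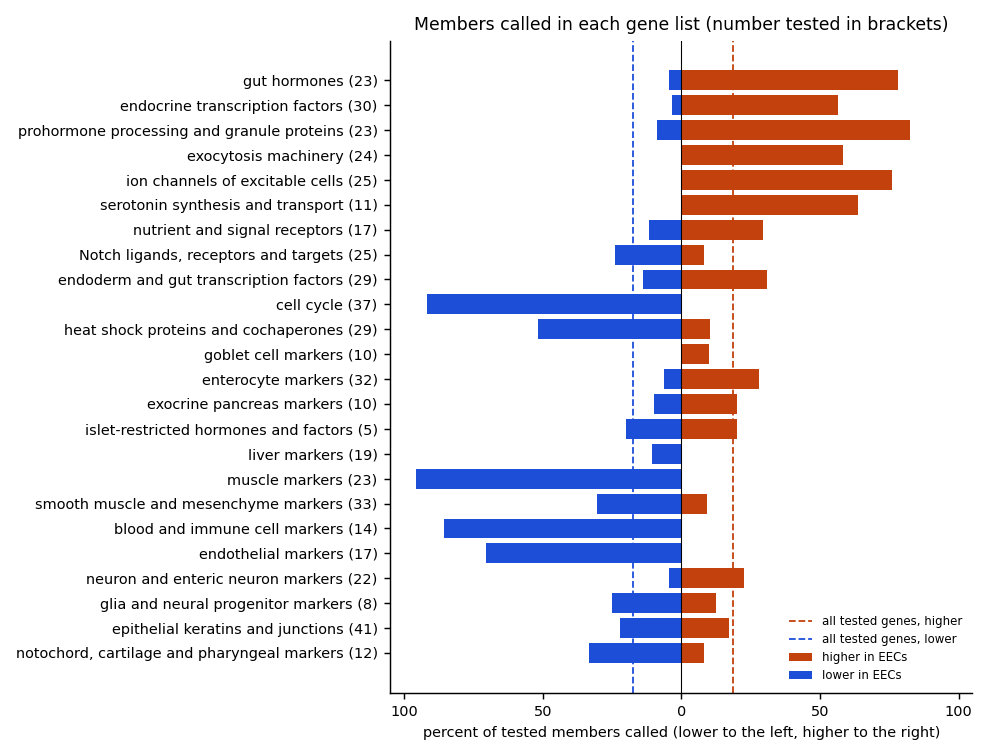
Percent of the tested members of each gene list called higher (orange, to the right) or lower (blue, to the left) in EECs at an FDR of at most 0.1, with dashed lines at the 18.7% and 17.5% of all genes tested. Hormone and granule lists reach 78.3% and 82.6% higher, and 91.9% of cell cycle genes are lower.

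Markers of other cells of the gut region were then read in each library. Exocrine pancreas genes took 0.0778%, 0.0962% and 0.00264% of counts in EECs and 0.00533% to 0.00852% in control endoderm. The trypsin-like gene prss59.2 was at 179, 203 and 2.61 CPM in EECs and 0.0791, 0 and 0 CPM in control endoderm and was higher by 4857-fold in the ratio of means (95% counting interval 872 to 191829), FDR = 0.0069. amy2al1, an amylase gene, was at 0.0787, 0 and 0 CPM in EECs and 58.3, 46.6 and 25.7 CPM in control endoderm and was lower by 1659-fold in the ratio of means (95% counting interval 298 to 65515), FDR = 0.001. EEC replicates 1 and 2 thus carried prss59.2 transcripts that replicate 3 nearly lacked. Of 10 tested genes of this list 2 (20%) were higher and 1 (10%) lower, against 18.7% and 17.5% of all genes tested. Without EEC replicate 3 it was 14 higher and 1 lower of 18.

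Liver genes took 0.0112%, 0.472% and 0.0219% of counts in EECs and 0.0932% to 0.167% in control endoderm. Of 19 tested, 0 were higher and 2 (10.5%) lower, against 18.7% and 17.5% of all genes tested. Their median log2 fold change was 1.60. Without EEC replicate 2 it was 10 lower with a median of -4.09. c3a.1, a complement gene of hepatocytes, was at 0.157, 28 and 0 CPM in EECs and 313, 524 and 425 CPM in control endoderm. The call of c3a.1 was lost without EEC replicate 1 or any control library. Liver transcripts in the EEC group were thus mostly those of replicate 2.

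Enterocyte genes took 0.261%, 0.645% and 0.311% of counts in EECs and 0.183% to 0.240% in control endoderm. Of 32 tested, 9 (28.1%) were higher, 2 (6.25%) were lower and 21 were not called (median log2 fold change 0.85), against 18.7% higher and 17.5% lower of all genes tested, and without EEC replicate 2 it was 7 higher and 10 lower (median -1.24). Some brush border genes were high in all 3 EEC libraries. VIL1, which encodes villin, was at 924, 1194 and 1352 CPM in EECs and 113, 116 and 90.02 CPM in control endoderm (log2 fold change 3.44 ± 0.32, FDR = 0.0011). SLC15A1, a peptide transporter, was at 344, 289.8 and 252 CPM in EECs and 0.395, 0.465 and 0.576 CPM in control endoderm (log2 fold change 9.23 ± 0.40, FDR = 0.00045). The peptidase gene anpepb was at 773, 897 and 544 CPM in EECs and 17.6, 10.7 and 5.95 CPM in control endoderm (log2 fold change 6.02 ± 0.53, FDR = 0.001). All 3 EEC libraries were above every control for these genes. The members that were lower were another peptidase gene, ANPEP (ENSDARG00000036809; log2 fold change -3.75 ± 1.02, FDR = 0.032), and dab2, an endocytic adaptor gene (log2 fold change -3.62 ± 0.40, FDR = 0.0017). The FDR of this ANPEP copy reached 0.116 over the alternative analyses. Goblet cell markers took 0.0511%, 0.134% and 0.0384% of counts in EECs against 0.0294% to 0.0352%. Only CREB3L1, a factor of secretory cells, was called among 10 of them. It was higher, and this share of 10% is below the 18.7% of all genes tested. AGR2, which folds mucins, was at 241, 1023 and 23.4 CPM in EECs and 122, 161 and 129 CPM in control endoderm and was not called. The goblet list was thus again highest in EEC replicate 2, and its part in the results was not tested.

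**Figure D4:**
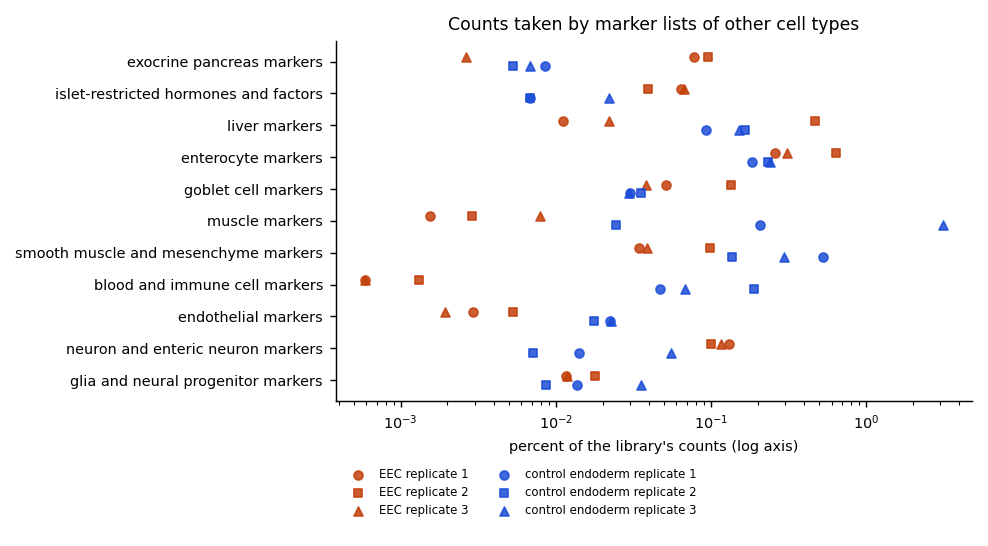
Percent of each library's counts taken by marker lists of other cell types, on a log x axis, with 1 symbol per library of wild-type EECs (n = 3, orange) and control endoderm (n = 3, blue). EEC replicate 2 is highest for liver, at 0.472%, and control replicate 3 for muscle, at 3.16%.

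Neuronal marker genes, some of which endocrine cells also express, took 0.0995% to 0.131% of counts in EECs and 0.00717% to 0.0555% in control endoderm. Of 22 tested, 5 (22.7%) were higher and 1 (4.55%) lower, against 18.7% and 17.5% of all genes tested, with a median log2 fold change of 1.15. RET, a receptor of glial-derived growth factors, was at 606, 499 and 678 CPM in EECs and 10.1, 5.02 and 16.5 CPM in control endoderm (log2 fold change 5.81 ± 0.53, FDR = 0.0011). phox2a, a homeobox factor of autonomic neurons, was at 78, 23.7 and 10.3 CPM in EECs and 0.237, 0.651 and 0.896 CPM in control endoderm (log2 fold change 5.94 ± 0.99, FDR = 0.0064). Neither gene overlapped between the groups. hand2, another member of the list, was also called higher, with a difference of mean log2(CPM + 1) of 2.78. It was at 26.9 to 53.3 CPM in EECs when scaled over all 23 libraries. The gene that was lower was isl2a, a LIM-homeobox factor of neurons, at 0, 0.0948 and 0 CPM in EECs and 5.3, 15.6 and 12.2 CPM in control endoderm. The pan-neuronal gene ELAVL3 was at 35.1, 35.5 and 22.9 CPM in EECs and 22.4, 2.14 and 204 CPM in control endoderm and was not called, nor were ELAVL4, CHAT, NOS1 and PRPH. The part of neurons in these values was not tested. Glial and progenitor markers gave 1 (12.5%) higher and 2 (25%) lower of 8, against the same 18.7% and 17.5%.

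Genes of tissues outside the gut epithelium were mostly lower in EECs. Muscle genes took 0.00155% to 0.00793% of counts in EECs and 0.206%, 0.0243% and 3.16% in control endoderm. Of 23 tested, 22 (95.7%) were lower, against 17.5% of all genes tested, with a median log2 fold change of -8.57. Without control replicate 3 it was 11 lower with a median of -4.38, and limma with quality weights called 1. The cardiac and skeletal actin gene actc1b was at 1.18, 0.664 and 24.3 CPM in EECs and 429, 102 and 17867 CPM in control endoderm. Control replicate 3 had the most actc1b by far, and without it the log2 fold change of actc1b was -4.95 against -9.47 with all libraries. Without EEC replicate 1 the calls of actc1b and myhz1.1 were lost.

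Blood and immune genes took 0.000584% to 0.0013% of counts in EECs and 0.0472%, 0.190% and 0.0685% in control endoderm. Of 14 tested, 12 (85.7%) were lower, against 17.5% of all genes tested. Their median log2 fold change was -7.28, or -7.22 with genes at 0 in EECs set at their limit. LCP1, a marker of leukocytes, was at 0.394, 0 and 0 CPM in EECs and 49.4, 28 and 40.8 CPM in control endoderm (log2 fold change -8.00 ± 1.11, FDR = 0.0034). Endothelial genes were lower in 12 (70.6%) of 17, against 17.5% of all genes tested (median -5.83, or -5.46 with such genes at their limit). Among them was stab2, a scavenger receptor of vessels, at 0.945, 0.569 and 0.521 CPM in EECs and 49, 36.8 and 32.7 CPM in control endoderm (log2 fold change -5.83 ± 0.52, FDR = 0.0011). Mesenchyme genes were higher in 3 (9.09%) and lower in 10 (30.3%) of 33 (median -2.28), against 18.7% and 17.5% of all genes tested. col1a2, a chain of type I collagen, was at 2.6, 24.7 and 21.7 CPM in EECs and 642, 153 and 347 CPM in control endoderm (log2 fold change -4.54 ± 0.93, FDR = 0.013). The whole mesenchyme list took 0.0345%, 0.0984% and 0.0384% of counts in EECs and 0.530%, 0.137% and 0.296% in control endoderm, so that EEC replicate 2 came close to control replicate 2. Its members that were higher in EECs were the smooth muscle genes acta2, 1 of 2 copies of TAGLN and desmb, and this number ran from 0 to 3 over the alternative analyses, with 1 left without EEC replicate 1, control replicate 1 or control replicate 3. The endoderm libraries thus held transcripts of blood and vessels that EECs nearly lacked, and the part of these tissues in the count of genes lower in EECs was not tested. Of 12 notochord, cartilage and pharyngeal markers 1 (8.33%) was higher and 4 (33.3%) were lower, against the same 18.7% and 17.5%.

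Among the 12 largest rises by the naming rule 8 were hormone genes or pax4. The others were adgrg4b and adgrg4a, urahb and prss59.2. adgrg4b, an adhesion G protein-coupled receptor gene, was at 607, 418 and 743 CPM in EECs and 0, 0.093 and 0 CPM in control endoderm and was higher by 19021-fold in the ratio of means (95% counting interval 3414 to 751283). Its paralog adgrg4a was at 114, 108 and 62.1 CPM in EECs and at 0 in the endoderm, at least 401-fold higher (FDR = 0.00099). urahb, an enzyme gene of uric acid breakdown, was at 696, 383 and 447 CPM in EECs and 0.158, 0 and 0.128 CPM in control endoderm (log2 fold change 12.16 ± 0.72, FDR = 0.00045). These 3 genes were on in all EEC libraries at levels that varied less than 2-fold between them.

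Embryonic globin genes led the 12 largest falls, with HBE1 (ENSDARG00000087390) at 0 in all EEC libraries and at 145, 1191 and 143 CPM in the endoderm, at least 1775-fold lower (FDR = 0.0055). A second HBE1 copy, hbae1.2, hbae1.3 and hbae3 were also at 0 in EECs and were at least 985-fold, 1202-fold, 884-fold and 778-fold lower. Globin genes are near-identical copies that can share reads, so the split between them is uncertain. The beta-defensin gene defbl1 was at 0 in EECs and at 744, 27.1 and 221 CPM in the endoderm, at least 1191-fold lower. TYRP1, an enzyme of melanin synthesis, was at 0 in EECs and at 73.8, 148 and 601 CPM in the endoderm, at least 987-fold lower. Both genes were present in all 3 endoderm libraries, defbl1 least in replicate 2. The rest were apoda.1 (apolipoprotein D), tnn (a tenascin) and the muscle genes myhz1.1, NEB and atp2a1, with the muscle genes highest in control replicate 3.

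Libraries not used above were read for the direction of these differences. The 4 delUCE EEC libraries and the 13 transgenic endoderm libraries differ in the same way in cell type, age, sort and heat shock, and share no library with the comparison. They also carry the neurod1 mutation or a transgene, so this is a description only. According to the paper, the neurod1 transgenes themselves induce endocrine genes. Of the 3250 genes higher in wild-type EECs, 3137 (96.5%) were also higher in delUCE EECs by the difference of mean log2 CPM, against 43.6% of all genes tested. Of the 3035 genes that were lower, 3003 (98.9%) were lower, against 56.4% of all genes tested. The 4 EEC and 13 endoderm libraries did not overlap for 1755 (54.0%) of the first set and 1816 (59.8%) of the second, against 12.8% and 16.9% of all genes tested. All 34 cell cycle, 21 granule, 18 transcription factor and 18 heat shock genes called kept their direction, and 18 of 19 hormone genes did. The exception among the hormones was ghrl, which the paper reports as strongly reduced, like tac1, in delUCE EECs. For tac1 and nmba the difference of mean log2(CPM + 1) was only 0.058 and 0.397, with overlap between the libraries. tac1 was at 0.209, 3.46, 0 and 0.555 CPM in delUCE EECs, against at most 3.15 CPM in the transgenic endoderm. sst1.2 was lower by the mean, but was at 896 CPM in delUCE EEC replicate 3, above the endoderm maximum of 412 CPM. Of the transcription factors, insm1a, insm1b and ascl1a overlapped between the libraries. insm1a was at 104 to 178 CPM in delUCE EECs and reached 195 CPM in transgenic endoderm. For insm1b these values were 226 to 1071 CPM and 318 CPM. Of the called members of the other lists, 5 changed direction, namely cdx4, TAGLN, fabp7a, krt1-c5 and COL2A1 (ENSDARG00000011407). The other called COL2A1 copy (ENSDARG00000069093) stayed lower.

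Scaled over all 23 libraries, penka was at 43265, 19354, 50206 and 10684 CPM in delUCE EECs, with a median of 0.396 CPM over the transgenic endoderm. adcyap1a was at 2770, 3442, 2666 and 2453 CPM, with a median of 0.377 CPM. Both hormone genes were high in all 4 mutant libraries. neurod1 was at 437, 999, 529 and 829 CPM, with a median of 8.15 CPM over the transgenic endoderm. The endoderm values leave out the stretch of neurod1 that the transgenes carry, which was counted as a feature of its own. In the libraries with the full-length neurod1 transgene, neurod1 was at 72.7, 22.0, 34.4 and 36.9 CPM.

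**Figure D5:**
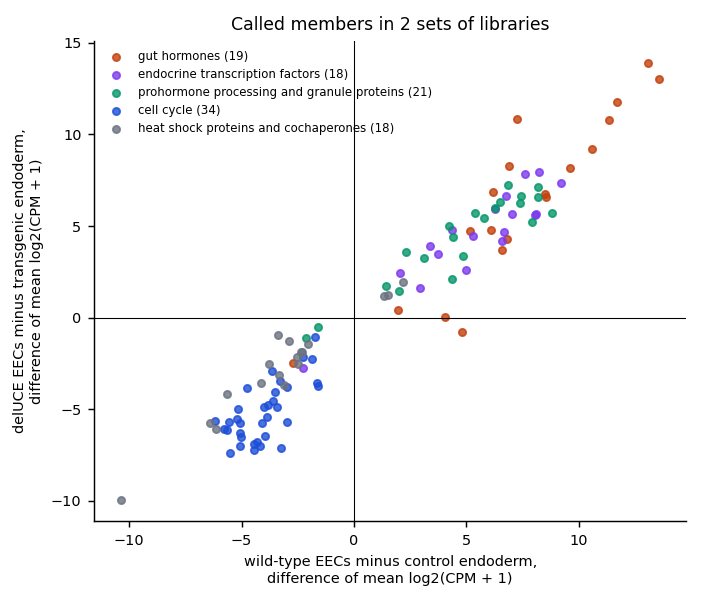
Difference of mean log2(CPM + 1) between wild-type EECs (n = 3) and control endoderm (n = 3) on the x axis, against the same between delUCE EECs (n = 4) and transgenic endoderm (n = 13) on the y axis, with 1 point per called gene of 5 lists. All points of the 34 cell cycle genes lie below 0 on both axes, and 18 of 19 hormone genes lie on the same side of 0 on both.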

How the data were processed

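EECs and control endoderm were profiled by RNA-seq of Smart-seq2 cDNA (13 cycles of PCR, 75-base single-end reads, no molecular identifiers). The authors deposited raw counts of reads per gene, without normalization, made per the paper's methods by trimming, mapping to GRCz11 with STAR 2.5.4b and its gene counting mode. The strand setting is not given in the sources used here, so overlapping genes and near-identical copies share reads in an unknown way. Names were paired with 29194 of 31902 identifiers, and symbols are printed as the tables give them, in capitals where those tables use them.

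R 4.3.3 was used. After TMM scaling and removal of low genes with filterByExpr, the 6 libraries were compared with edgeR 4.0.16 (glmQLFit, glmQLFTest), with Benjamini-Hochberg adjustment and a limit of 0.1, which left 17346 genes. Standard errors were derived from the F statistic. A gene without a count in a whole group was given a limit of 3 counts per library, which covers counting error only. With 1 to 3 counts, a ratio with a 95% counting interval is given. No 2 libraries of a group agreed within sampling noise. A naming rule picked the markers and the 12 largest rises and falls with groups apart, a symbol and above 10 CPM. It added every called hormone, transcription factor, granule and serotonin gene. From other lists it took up to 4 called genes per direction, those with the highest mean CPM in the higher group. Other called genes, such as CACNA1B, MCM2, MCM3, LCP1, phox2a, galr1a, her8a and mfng, are named outside this rule, with their values known. Genes of a list that were not called are given by name or by values where they define a cell type or state, chosen after their values were seen. Some members of the lists are counted but not reported here by name. The comparison, its gene lists and these rules were chosen with earlier results of these data known. Alternatives were DESeq2 1.42.0, RLE factors, no filter, limma 3.58.1 voom with quality weights, a limit of 0.05, a minimum fold (glmTreat), all 23 libraries, a replicate block and each library left out. Leaving out EEC replicate 2 and control replicate 3 together was added after the data were seen.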

Additional observations from a re-analysis of the deposited data

How the results depend on the processing

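Of 3250 genes higher and 3035 lower in EECs, a minimum log2 fold of 1 (glmTreat) left 1951 and 1804. DESeq2 called 3705 higher and 4774 lower. It started from the 26602 genes with a count, without filterByExpr but with its own default filter on mean count. The other settings with all 6 libraries stayed within 1.5 times of both counts. With each library left out in turn, 2232 to 3409 genes were higher and 2107 to 4108 lower, and without EEC replicate 2 and control replicate 3 together, chosen after seeing the data, 2288 and 2595. The share of calls that were higher was 51.7%, 46.6% with RLE factors, 43.7% with DESeq2, 44.2% with no filter, 42.2% with all 23 libraries in the fit and 42.0% without EEC replicate 2. A replicate block gave 2406 higher and 2377 lower, but the numbers do not pair the samples: deviations of same-numbered libraries correlated at -0.08, 0.05 and 0.01. Of 167 genes picked by the naming rule, 125 were called under every alternative. Of 2498 values of these genes under an alternative, 2304 kept their direction and call, 194 lost the call and 0 reversed. In the libraries that the comparison did not use, the share with the same direction was 94.7% to 97.9% for genes higher and 97.2% to 99.2% for genes lower under other scalings and calls. Depth limits genes near 0: 3 counts correspond to 0.192 to 0.313 CPM.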

Other observations

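Families defined by gene name, chosen after the data were seen, add to the profile. Potassium channel genes were higher in 43 and lower in 4 of 65 tested, with a median log2 fold change of 4.86, against 18.7% and 17.5% of all genes tested. Voltage-gated calcium channel subunits were higher in 14 (58.3%) of 24 and synaptotagmins in 11 (64.7%) of 17, with 0 lower in both, against the same 18.7% and 17.5%. Opioid and neuropeptide receptor genes were higher in 13 (56.5%) and lower in 2 (8.70%) of 23, with a median of 4.15, against the same 18.7% and 17.5%. OPRD1, the delta opioid receptor that binds enkephalins, was at 320.2, 269 and 351 CPM in EECs and 0, 0 and 0.576 CPM in control endoderm (log2 fold change 10.44 ± 1.11, FDR = 0.0016). OPRM1, the mu receptor, was at 35.9, 55 and 86.4 CPM in EECs and 0.237, 0 and 0.768 CPM in control endoderm (log2 fold change 7.33 ± 1.01, FDR = 0.0032). Transcripts of penka and of these receptors were thus detected in the same sorted pools, and which cells held them was not tested. RGS genes, whose proteins shorten G protein signals, were higher in 9 (56.25%) and lower in 0 of 16, against the same 18.7% and 17.5%. Adhesion G protein-coupled receptor genes were higher in 8 (34.8%) and lower in 4 (17.4%) of 23, with a median of 0.65. The share that was lower is near the 17.5% of all genes tested, of which 18.7% were higher.

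Ribosomal protein genes were higher in 0 and lower in 27 (34.2%) of 79 tested, against 18.7% and 17.5% of all genes tested. Their median log2 fold change was -1.17. With RLE factors it was 42 lower with a median of -1.31, and without control replicate 2 it was 4 lower. Proteasome subunit genes were lower in 22 (41.5%) of 53 (median -0.85) and higher in 0, against the same 17.5% and 18.7%. Respiratory chain genes were lower in 16 of 104 (15.4%, median -0.55), below the 17.5% of all genes tested, and higher in 0. DNA replication genes were higher in 1 (2.86%) and lower in 32 (91.4%) of 35 (median -4.43). Collagen genes were lower in 15 (48.4%) of 31 and higher in 0. Both stand against the same 18.7% higher and 17.5% lower. Solute carrier genes were higher in 86 (26.5%) and lower in 40 (12.3%) of 324 tested, against 18.7% and 17.5% of all genes tested. Their median log2 fold change was 0.16.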
